A study of Homo sapiens with 16 samples.

Results

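The genes described here are 9 metallothioneins (MT1A, MT1E, MT1F, MT1G, MT1H, MT1M, MT1X, MT2A and MT3), taken by symbol from a table of 35993 genes because members of this family are known to rise with deacetylase inhibitors. All 9 were in the table and all 9 passed the filter on low counts, with 21297 genes in total. Passing meant enough counts in at least 1 of the 8 groups, so a member could pass through the group in which it was high. The data are RNA counts of TCCSUP, RT112, J82 and 253J cells, established lines from human bladder cancer that the labels give as wild type. Each line was cultured for 48 h with CM-1758, a histone deacetylase inhibitor, at the IC50 of that line, or as a vehicle control with DMSO, with 2 libraries of independent replicates in each of 8 groups, 16 in all. The dose therefore differed between lines and each line is a single line, so line and dose cannot be told apart. The study's methods give EMEM medium for TCCSUP and DMEM for 253J, J82 and RT112. Medium therefore also differed wherever TCCSUP is compared with another line.

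Metallothioneins are small cytoplasmic proteins in which a large share of the residues is cysteine, and the cysteine thiols hold zinc, copper and cadmium in clusters. They buffer free zinc, protect against toxic metals and react with oxidants. Transcription of MT2A and of many MT1 genes is switched on by metal and by glucocorticoids. Metal acts through MTF1, a zinc finger factor that senses zinc and binds metal response elements (MREs) in their promoters. MT2A and most MT1 genes are made in many tissues, whereas MT3 was found as a growth inhibitory factor of the brain and is largely neural. The human genes stand side by side on the long arm of chromosome 16.

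In the RefSeq gene order the members followed each other as MT3, MT2A, MT1E, MT1M, MT1A, MT1F, MT1G, MT1H and MT1X, with MT1B and several pseudogenes among them. MT4 lay before MT3, BBS2 before MT4 and NUP93 after MT1X. The coding sequences are shown for MT1X and MT2A, which responded to CM-1758 in most lines, and for MT1E, which was well counted in TCCSUP only. They are from GENCODE v29, and capitals mark the cysteine codons, TGC or TGT, in the reading frame.
MT1X: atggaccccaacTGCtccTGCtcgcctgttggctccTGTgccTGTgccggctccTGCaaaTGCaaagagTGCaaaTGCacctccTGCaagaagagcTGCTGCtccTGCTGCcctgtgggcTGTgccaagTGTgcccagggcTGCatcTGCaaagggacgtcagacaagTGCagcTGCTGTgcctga
MT2A: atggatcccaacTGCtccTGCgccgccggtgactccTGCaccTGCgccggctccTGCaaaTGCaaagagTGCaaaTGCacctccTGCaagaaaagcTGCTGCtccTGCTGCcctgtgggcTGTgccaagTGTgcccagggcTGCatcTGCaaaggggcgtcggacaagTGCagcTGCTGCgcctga
MT1E: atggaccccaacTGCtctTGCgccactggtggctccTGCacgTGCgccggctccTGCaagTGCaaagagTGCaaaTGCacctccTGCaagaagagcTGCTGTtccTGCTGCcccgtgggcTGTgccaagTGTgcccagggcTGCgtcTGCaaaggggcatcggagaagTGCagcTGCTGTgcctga
The reading frames of MT2A and every MT1 member held 20 cysteine codons among 61 codons before the stop. MT1X and MT2A were identical at 172 of 186 bases (92.5%), and MT1G and MT2A at 177 (95.2%). This likeness bears on the counts, since a read from a shared stretch cannot be placed on 1 gene. Of the 50-base windows of the main transcript, 45.1% in MT1X, 20.4% in MT1H, 20.2% in MT1G and 3.59% to 7.05% in MT1A, MT1E, MT1F, MT1M and MT2A occurred in a transcript of another gene, mostly of a metallothionein gene or pseudogene, and 0% did in MT3. How reads with several placements were counted is not given in the sources used here, so values of members other than MT3 are uncertain to that degree, MT1X the most.

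RefSeq promoter sequences matched 3 of the 9 members, MT1X, MT2A and MT1H. They are shown over the 250 bases before the gene start (GRCh38.p14, plus strand) because the members moved together in some lines, and capitals mark the MRE core TGCACNC or TGCGCNC on either strand.
MT1X, chr16:56682220-56682469: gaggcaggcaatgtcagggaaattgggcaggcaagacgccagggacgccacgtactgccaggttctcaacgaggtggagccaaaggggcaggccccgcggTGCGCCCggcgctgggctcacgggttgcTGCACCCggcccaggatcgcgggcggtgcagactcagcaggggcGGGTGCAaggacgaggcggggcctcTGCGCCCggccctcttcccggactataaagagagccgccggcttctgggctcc
MT2A, chr16:56608334-56608583: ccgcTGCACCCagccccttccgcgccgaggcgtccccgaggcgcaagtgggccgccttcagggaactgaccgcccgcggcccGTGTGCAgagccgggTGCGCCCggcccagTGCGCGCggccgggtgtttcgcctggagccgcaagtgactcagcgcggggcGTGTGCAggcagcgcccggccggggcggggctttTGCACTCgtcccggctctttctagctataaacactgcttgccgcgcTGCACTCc
MT1H, chr16:56669564-56669813: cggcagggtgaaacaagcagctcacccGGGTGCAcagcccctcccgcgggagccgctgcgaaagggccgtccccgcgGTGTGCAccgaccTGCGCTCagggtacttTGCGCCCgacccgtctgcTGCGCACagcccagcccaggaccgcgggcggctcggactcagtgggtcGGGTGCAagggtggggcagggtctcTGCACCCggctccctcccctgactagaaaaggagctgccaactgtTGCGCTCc
The core occurred 4 times in MT1X, 7 times in MT2A and 8 times in MT1H. MT1B and MT4, which are not among the 9 members, held 3 each. Among 35116 promoters of the same length, 24.8% held at least 1 core, 0.37% at least 4, 0.0313% at least 7 and 0.0171% at least 8. A TATAAA box lay 30 bases before the start of MT1X and 29 before that of MT2A, against 10.7% of promoters with this word on either strand. Those letters were not in the MT1H window. MREs are known from metallothionein promoters, so a high number of cores in them is no independent result. A match is a description of the letters and no measure of binding, and its part in the CM-1758 response was not tested.

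Total counts per library ran from 22506431 to 32537104, with a median of 29363076 in the 8 control libraries and of 23590242.5 in the 8 treated ones. The 2 libraries of a group differed by more than counting noise in every group, so none was taken for a duplicate. Of 13 urothelial and epithelial markers, 4 were at 0 in every library of 253J (KRT5, UPK1B, UPK2 and UPK3A), 3 in J82 (KRT5, UPK2 and UPK3A), 1 in RT112 (UPK3A) and 0 in TCCSUP, where their summed level was lowest, at 510.6 to 1451 counts per 1000000 (CPM) against 1870 to 8588 in the other lines. Of 7 fibroblast markers, summed levels were 19.6 to 30.7 CPM in 253J, 276.4 to 406.5 in J82, 837.2 to 1368 in RT112 and 583 to 7870 in TCCSUP, where the treated libraries held the lower values. The 5 leukocyte markers summed to at most 20.95 CPM in any library and the 4 endothelial ones to at most 13.6. CPM is computed on TMM-scaled library totals, and a floor of 3 counts corresponds to 0.0981 to 0.119 CPM.

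MT1X rose with CM-1758 in every line, and in RT112 and TCCSUP most of the other members rose as well. In RT112 6 of the 9 members rose and in TCCSUP 7, at an adjusted p below 0.01. Of these calls, MT1G and MT1H in RT112 and MT1G in TCCSUP rest on few reads and were not made with DESeq2. The counts of 6 and 7 stand beside 20% of all genes tested called higher in RT112 and 23.7% in TCCSUP. MT1G, MT1H and MT3 had 0 counts in every control library, so they passed the filter through treated groups only. The family was also chosen as one known to rise, with earlier results of these data known. The comparison with all genes is therefore a description and no independent result. In 253J 2 members rose and in J82 2, shares close to the 21.4% and 17.4% of all genes called higher there. In 253J the other 7 members had 0 counts in all 4 libraries and could not be called, so both members with counts rose. In J82 3 members were at or under the floor in both groups. MT1X, the member at the end of the cluster, was the only one called higher in all 4 lines, and MT2A was called higher in 3, with J82 as the exception. A single member, MT1M in J82, was called lower, against 13.3% of all genes called lower in J82, 18.1% in 253J, 14.7% in RT112 and 17.2% in TCCSUP. With a log2 fold change above 2 required as well, 1 member was called higher in 253J, 1 in J82, 7 in TCCSUP and 6 in RT112, beside 9.43%, 8.81%, 14.2% and 11.4% of all genes in that order.

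The median log2 fold change over the 9 members was 5.27 in RT112, 4.87 in TCCSUP, 0.20 in J82 and 0 in 253J, against 0.12, 0.20, 0.05 and 0.10 over all genes tested. The 0 in 253J comes from the 7 members with 0 counts there, while MT1X and MT2A rose. With members that had 0 control counts set to their lower bound, the family median was 2.49 in RT112 and 2.48 in TCCSUP and the other medians stayed as given. The change in all genes depends on the scaling. With library size alone the median of all genes was higher by 0.31 in TCCSUP, 0.27 in 253J and 0.15 in both J82 and RT112 on the log2 scale, and the changes below are relative to the TMM scaling. In bulk RNA a change in the number of cells that express a gene and a change in RNA per cell cannot be told apart. In TCCSUP the summed level of the fibroblast markers went from 7493 and 7870 CPM in control to 647.8 and 583 CPM with CM-1758, with 6 of the 7 called lower. That of the urothelial and epithelial markers went from 1329 and 1451 to 595.5 and 510.6 CPM in TCCSUP, with 2 of 13 called lower and 1 higher. In 253J it went from 4338 and 3187 to 2358 and 1870 CPM, with 2 called lower and 2 higher. In RT112 the summed level of the fibroblast markers went from 1368 and 1336 to 837.2 and 907.3 CPM, although 4 of the 7 were called higher and 0 lower. LUM made up most of that sum, with a mean of 1346.5 CPM in control and 845.5 CPM with CM-1758. The part of these markers in the metallothionein changes was not tested.

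**Figure D1:**
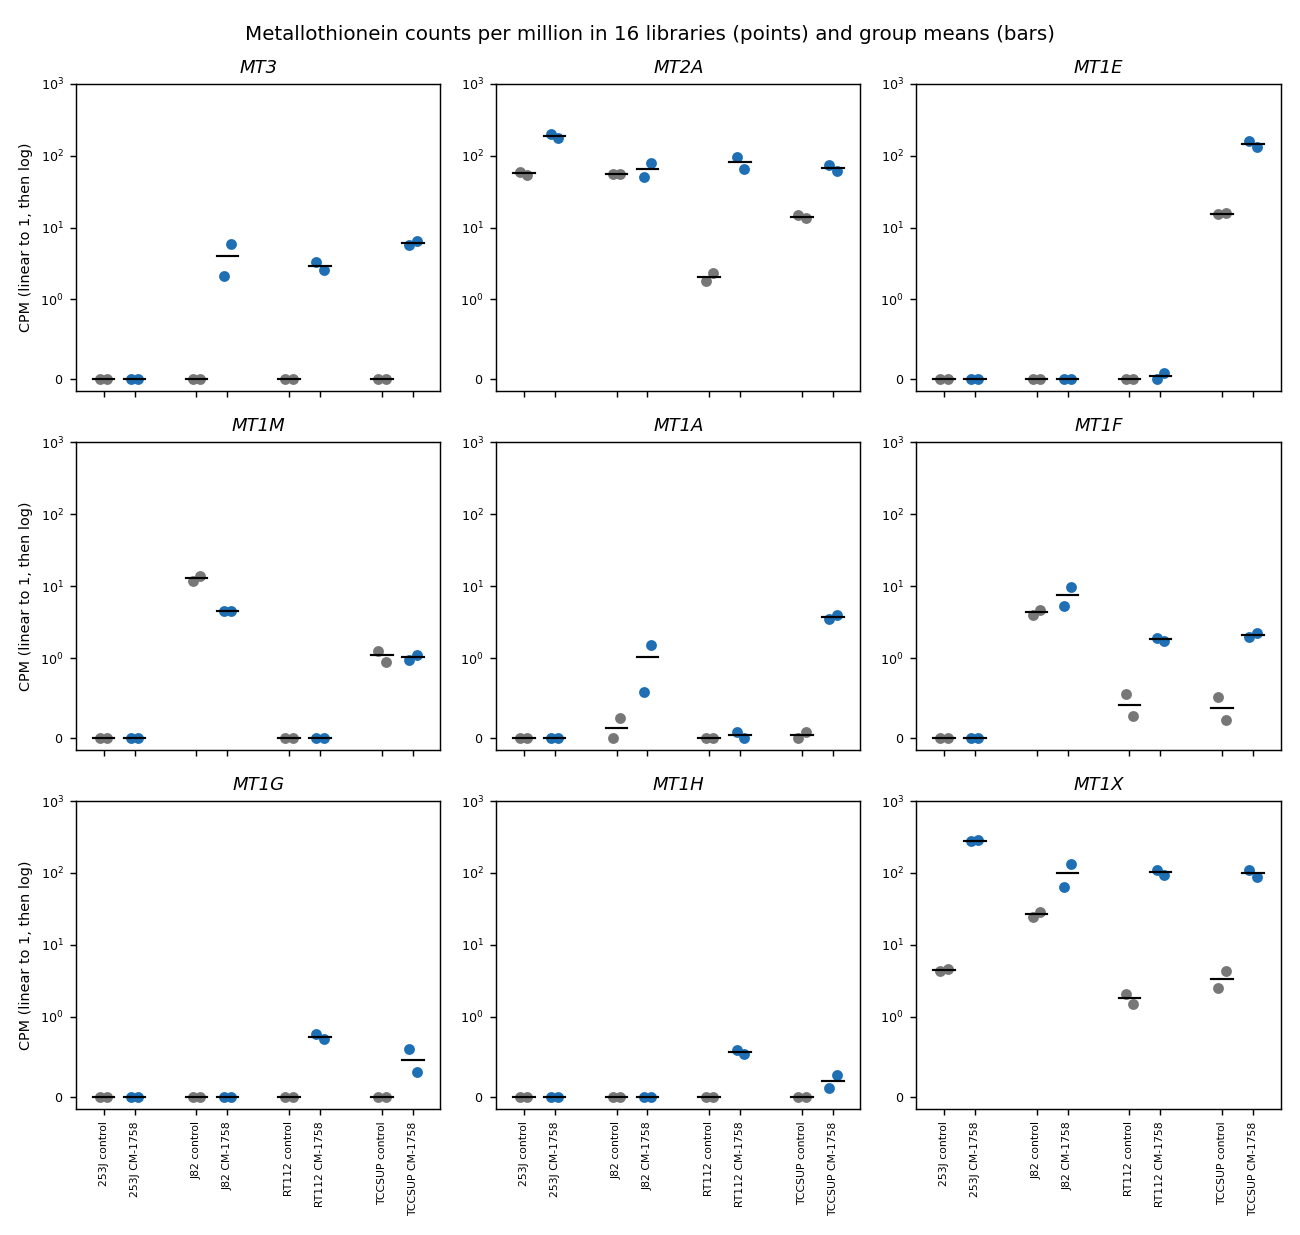
CPM of each member (panels in cluster order) in the 16 libraries on an axis that is linear up to 1 and logarithmic above. Grey points are control libraries, blue points CM-1758 libraries and black bars the mean of the 2 libraries of a group; MT1X was higher with CM-1758 in every line, while 7 of the 9 panels stayed at 0 in 253J.

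MT1X encodes a broadly made MT1 isoform. In 253J its level was 4.27 and 4.56 CPM in the control libraries and 279 and 286 CPM with CM-1758, a log2 fold change of 6.0 (SE 0.34, adjusted p = 1.184e-08), or 63.9-fold. In J82 the control libraries held 24.8 and 28.6 CPM and the treated ones 64.3 and 132.6 CPM, a log2 fold change of 1.88 (SE 0.28, adjusted p = 7.384e-05). The 2 treated J82 libraries thus lay apart on the log2 scale by about as much as the lower of them lay above the controls, and no treated value reached down to a control value. In RT112 MT1X stood at 2.09 and 1.52 CPM in control and at 111.6 and 93.0 CPM with CM-1758, a log2 fold change of 5.82 (SE 0.35, adjusted p = 1.712e-08). In TCCSUP 2.53 and 4.29 CPM in control compared with 111.3 and 88.3 CPM with CM-1758, a log2 fold change of 4.87 (SE 0.33, adjusted p = 3.475e-08). After treatment J82, RT112 and TCCSUP had mean levels of 98.5, 102.3 and 99.8 CPM, with SDs of 48.3, 13.2 and 16.3 (n = 2 each), from control means that spanned 1.81 to 26.7 CPM. 253J reached 282 CPM (SD 4.31, n = 2).

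MT2A encodes the main isoform in most human cells. In 253J it stood at 59.8 and 54.4 CPM in control and at 202 and 174.2 CPM with CM-1758, a log2 fold change of 1.72 (SE 0.21, adjusted p = 7.006e-06). In J82 the groups overlapped, with 55.9 and 56.3 CPM in control and 50.5 and 78.1 CPM with CM-1758, and the log2 fold change of 0.20 (SE 0.20, adjusted p = 0.4728) did not pass the test. It was -0.15 without J82 CM-1758 replicate 3 and 0.56 without CM-1758 replicate 1, so neither direction can be given. In RT112 MT2A rose from 1.83 and 2.30 CPM to 94.6 and 65.7 CPM, a log2 fold change of 5.27 (SE 0.26, adjusted p = 3.79e-09), or 38.7-fold. In TCCSUP it rose from 14.9 and 13.5 CPM to 74.5 and 61.4 CPM, a log2 fold change of 2.26 (SE 0.22, adjusted p = 8.898e-07). The lines with the higher control levels, 253J and J82, had the smaller log2 fold changes and RT112, with the lowest, had the largest. The control level is the denominator of the fold change, so the order of levels and the order of changes are not independent. The MT2A responses of 253J and TCCSUP also did not differ in the interaction contrast (adjusted p = 0.1916).

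Both MT1X and MT2A had counts in all 8 groups, so the response could be compared between lines. The F test of treatment by line gave an adjusted p of 4.011e-06 for MT1X and 1.748e-07 for MT2A, a test that 36.6% of all genes passed. The MT1X response in J82 was smaller than that in 253J, with a log2 difference of -4.12 (SE 0.41, adjusted p = 3.86e-06). It was also smaller than in RT112, by 3.93 (SE 0.43, adjusted p = 1.242e-05), and than in TCCSUP, by 2.99 (SE 0.41, adjusted p = 0.0001089). The other 3 pairs of lines did not pass for MT1X, with differences of -0.18 (SE 0.45) for RT112 against 253J, -1.13 (SE 0.43) for TCCSUP against 253J and -0.95 (SE 0.45) for TCCSUP against RT112. For MT2A 5 of the 6 pairs passed. The response in RT112 exceeded that in J82 by 5.08 (SE 0.32, adjusted p = 1.226e-07), that in 253J by 3.56 (SE 0.32) and that in TCCSUP by 3.01 (SE 0.32). TCCSUP exceeded J82 by 2.06 (SE 0.29), J82 minus 253J was -1.52 (SE 0.29), and TCCSUP against 253J differed by 0.54 (SE 0.29, adjusted p = 0.1916). Over all genes the pairwise test was passed by 19.1% (J82 against 253J), 19.2% (RT112 against 253J), 17.9% (TCCSUP against 253J), 12.7% (RT112 against J82), 12.6% (TCCSUP against J82) and 17.3% (TCCSUP against RT112). These contrasts share their libraries.

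The remaining MT1 genes were expressed by line. MT1E was at 0 counts in all 4 libraries of 253J and of J82 and had at most 2 counts in any RT112 library. In TCCSUP it was at 15.2 and 15.9 CPM in control and at 158.8 and 130.8 CPM with CM-1758, a log2 fold change of 3.22 (SE 0.20, adjusted p = 8.106e-07), or 9.29-fold. A gene with 416 counts or fewer in control TCCSUP thus reached 3323 and 4243 counts, while the treated libraries of 253J, with the highest MT1X levels of all, held 0 MT1E counts.

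MT1F was at 0 counts in 253J. In J82 it had 3.99 and 4.65 CPM in control and 5.37 and 9.82 CPM with CM-1758, a log2 fold change of 0.81 (SE 0.38, adjusted p = 0.1018) that did not pass although the groups did not overlap. In RT112 it rose from 0.556 and 0.271 CPM to 1.92 and 1.72 CPM, a log2 fold change of 2.12 (SE 0.48, adjusted p = 0.002635). In TCCSUP it rose from 0.514 and 0.23 CPM to 1.98 and 2.2 CPM, a log2 fold change of 2.48 (SE 0.49, adjusted p = 0.0009073). These are low counts, 6 to 17 in the control libraries of both lines. The call in RT112 was lost without RT112 control replicate 2 (adjusted p = 0.03374) or CM-1758 replicate 1 (0.01498), and that in TCCSUP without TCCSUP control replicate 2 (0.01532). Over all alternatives the adjusted p of MT1F ran from 0.0006592 to 0.03374 in RT112 and from 0.0001079 to 0.01532 in TCCSUP.

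MT1M was the member that fell. In J82 it was at 11.8 and 14.0 CPM in control and at 4.55 and 4.47 CPM with CM-1758, a log2 fold change of -1.52 (SE 0.29, adjusted p = 0.001678). The groups did not overlap and the 2 treated libraries lay close together, unlike their MT1X, MT1F and MT3 values. With 1 J82 library left out the change stayed between -1.64 and -1.38, but the call was lost without control replicate 3 (adjusted p = 0.01308), CM-1758 replicate 1 (0.01502) or CM-1758 replicate 3 (0.01476), and over all alternatives the adjusted p ran from 0.001059 to 0.01502. In TCCSUP 1.27 and 0.957 CPM in control compared with 0.973 and 1.1 CPM with CM-1758, with overlapping groups (log2 fold change -0.10, SE 0.35, adjusted p = 0.8446). MT1M was at 0 counts in every library of 253J and RT112.

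MT1A had 0 and 2 counts in control TCCSUP and 93 and 102 counts with CM-1758. This is a ratio of 96.1 with an exact 95% counting interval of 26.3 to 799 (adjusted p = 0.0004295 in the fit). In J82 it had 0 and 7 counts in control and 16 and 45 with CM-1758, which did not pass (log2 fold change 2.98, SE 0.96, adjusted p = 0.0255). It did pass without J82 control replicate 3, the library with the 7 counts (adjusted p = 0.00811, with a range over all alternatives of 0.00811 to 0.1822). RT112 had 2 counts in 1 treated library and 253J had 0.

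MT1G and MT1H lie next to each other in the cluster and had 0 counts in every control library. MT1G had 20 and 19 counts in the treated RT112 libraries and 16 and 8 in those of TCCSUP, and 0 in the other 12 libraries. Against the floor of 3 counts per library this is at least 7.55-fold higher in RT112 (adjusted p = 0.002893) and at least 3.91-fold higher in TCCSUP (adjusted p = 0.006952). MT1H had 15 and 14 counts in treated RT112, at least 5.61-fold higher (adjusted p = 0.005777), and 3 and 7 in treated TCCSUP, at least 1.66-fold higher, which did not pass (adjusted p = 0.03562). These calls rest on few reads and on the model. With DESeq2 the adjusted p was 0.2303 for MT1G and 0.3568 for MT1H in RT112 and 0.2997 for MT1G in TCCSUP. Over all alternatives it ran from 0.0006513 to 0.2303, from 0.001147 to 0.3568 and from 0.004997 to 0.2997, in the same order. The MT1G and MT1H calls in RT112 were both lost without any 1 of the 4 RT112 libraries, and that of MT1H also without TCCSUP CM-1758 replicate 1 (adjusted p = 0.01401) or replicate 2 (0.01518). Without RT112 control replicate 2 or CM-1758 replicate 1, where MT1F is lost as well, only 3 members were called higher in RT112. The MT1G call in TCCSUP was lost without any 1 of the 4 TCCSUP libraries or either treated RT112 library.

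MT3, the neural isoform, had 0 counts in all 8 control libraries and in the treated 253J libraries. With CM-1758 it had 60 and 174 counts in J82, 84 and 67 in RT112 and 153 and 165 in TCCSUP. Against the floor it was at least 36-fold higher in J82 (adjusted p = 7.278e-05), at least 29.3-fold in RT112 (adjusted p = 9.081e-05) and at least 52.3-fold in TCCSUP (adjusted p = 2.61e-05). The treated levels were 2.15 and 5.89 CPM in J82, 3.29 and 2.56 in RT112 and 5.73 and 6.49 in TCCSUP. The call held in all 3 lines under each alternative in which MT3 could be tested, with a highest adjusted p of 0.000983. MT3 passed the filter only through groups in which it was high, and asking for at least 10 counts in every library left it out. The alternatives that kept MT3 share this selection and are no independent support. MT3 shared no 50-base window with another gene.

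**Figure D2:**
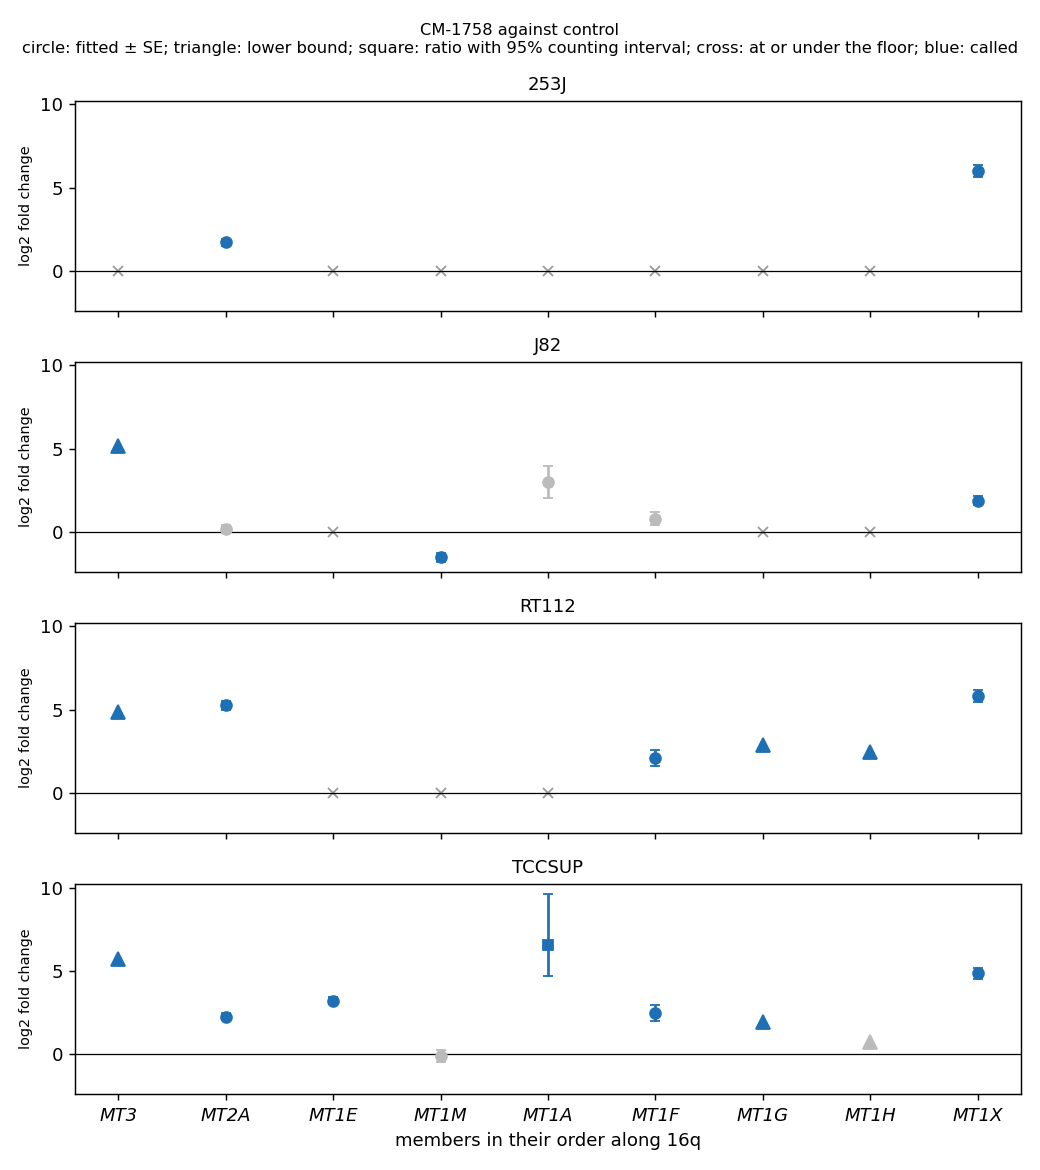
Log2 fold change of CM-1758 against control for the 9 members in their order along the cluster, 1 panel per line. Circles are fitted values with SE, triangles lower bounds against a floor of 3 counts, squares a ratio with its 95% counting interval, crosses members at or under the floor in both groups, and blue marks an adjusted p below 0.01; the called members run from 2 in 253J to 7 in TCCSUP, and the value below 0 that passed is MT1M in J82.

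253J differed from the other lines in that 7 of the 9 members (MT1A, MT1E, MT1F, MT1G, MT1H, MT1M and MT3) had 0 counts in all 4 of its libraries, treated ones included. A count of 0 in these libraries allows up to 0.101 to 0.119 CPM each and covers counting error only. The number of members above the floor stayed at 2 in 253J. It went from 4 and 5 to 6 and 6 in J82, from 3 and 3 to 6 and 6 in RT112, and from 5 and 5 to 8 and 9 in TCCSUP. The set in use thus widened in 3 lines, and MT3 was among the members that appeared in each of the 3. Over all genes, the number with enough reads to compare replicates was also larger with CM-1758 in every line. It went from 16922 to 19102 in 253J, 16679 to 18564 in J82, 17085 to 19224 in RT112 and 17004 to 20563 in TCCSUP. More genes with reads after treatment was therefore not particular to this family. This number is per group and the floor is per library, so the sizes are not compared.

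The summed level of the 9 members differed between lines by a larger ratio in control than with CM-1758, but by fewer CPM. In control it was 100.2 CPM (SD 5.21) in J82, 61.5 CPM (SD 3.58) in 253J, 34.7 CPM (SD 0.376) in TCCSUP and 4.29 CPM (SD 0.268) in RT112, with n = 2 for each. With CM-1758 it was 180 CPM (SD 74.2), 471 CPM (SD 15.3), 326 CPM (SD 44.4) and 189 CPM (SD 34.4) in the same order. The folds were 1.80 in J82, 7.65 in 253J, 9.40 in TCCSUP and 44.0 in RT112, given as a description with no test. In J82 the fold was 2.32 without CM-1758 replicate 1 and 1.27 without CM-1758 replicate 3. Summed over the 7 MT1 genes alone the folds were 64.0 in 253J, 47.5 in RT112, 12.3 in TCCSUP and 2.53 in J82, and the lower fold of the whole family in 253J went with its high control level of MT2A. Even at its highest, in treated 253J, the family took 0.0537% of a library.

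In the control libraries 5 of the 9 members (MT1E, MT1F, MT1M, MT1X and MT2A) differed between lines in the F test over the 4 control groups, which 69.9% of all genes passed. MT1X was highest in J82 (26.7 CPM), above 253J (4.42 CPM, adjusted p = 3.531e-06). 253J and TCCSUP (3.41 CPM, adjusted p = 0.3794) did not differ beyond their spread, and neither did TCCSUP and RT112 (1.81 CPM, adjusted p = 0.04633) at the threshold used. MT2A was at the same level in 253J (57.1 CPM) and J82 (56.1 CPM) within the spread, with a log2 difference of -0.03 (SE 0.20). It was lower in TCCSUP (14.2 CPM, adjusted p = 2.323e-06 against J82) and lower again in RT112 (2.07 CPM, adjusted p = 2.057e-07). MT1F was highest in J82 (4.32 CPM), above RT112 (0.413 CPM, adjusted p = 3.658e-05), which did not differ from TCCSUP (0.372 CPM, adjusted p = 0.8841). MT1M was higher in J82 (12.9 CPM) than in TCCSUP (1.11 CPM, adjusted p = 5.521e-06). For all genes, the pairs of control lines differed in 42.3% (J82 and 253J), 43.8% (RT112 and 253J), 41.7% (TCCSUP and 253J), 41.9% (RT112 and J82), 36.5% (TCCSUP and J82) and 41% (TCCSUP and RT112).

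Within a library, the ratio of MT1X to MT2A counts does not depend on depth or scaling. It was 0.0715 and 0.0837 in control 253J and 1.38 and 1.64 with CM-1758. In J82 it went from 0.444 and 0.509 to 1.27 and 1.70, and in TCCSUP from 0.17 and 0.318 to 1.49 and 1.44. In RT112 it was 1.14 and 0.662 in control and 1.18 and 1.42 with CM-1758, with the groups only just apart. The 8 treated libraries therefore lay between 1.18 and 1.70, whereas the 8 control libraries ranged from 0.0715 to 1.14. The genes differ in transcript length and MT1X shares many windows with other genes, so the ratio can be compared between libraries but is not a ratio of molecules.

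In 253J, J82 and TCCSUP the share of MT2A in the counts of the family was lower, and that of MT1X higher, in both treated libraries than in both controls. MT2A made up 93.3% and 92.3% of the family counts in control 253J and 42.0% and 37.9% with CM-1758, with MT1X as the rest. In TCCSUP MT1E kept a nearly constant share, 44.3% and 45.6% in control and 44.4% and 44.4% with CM-1758, while MT2A went from 43.2% and 38.6% to 20.8% and 20.8% and MT1X from 7.36% and 12.3% to 31.1% and 29.9%. MT1M made up 12.2% and 13.5% of the family counts in control J82 and 3.57% and 1.92% with CM-1758.

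**Figure D3:**
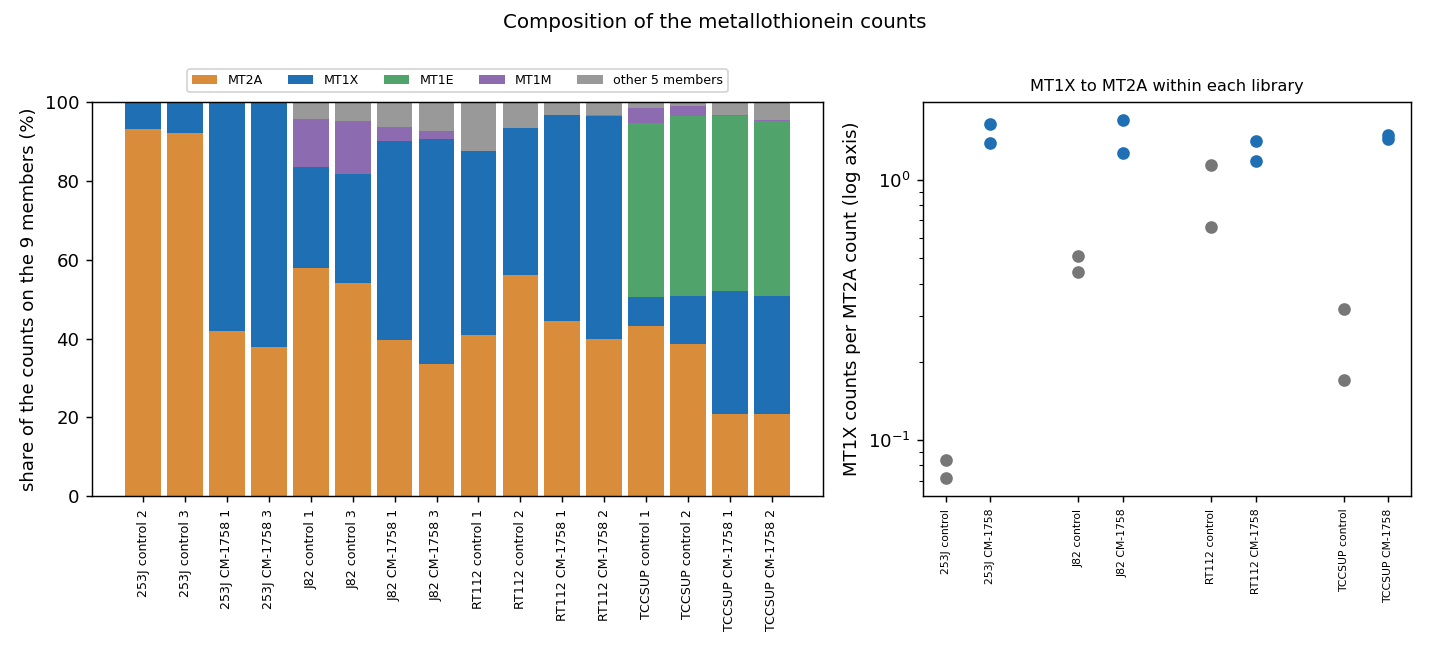
Left, share of the counts on the 9 members (%) taken by MT2A, MT1X, MT1E, MT1M and the other 5 members together in each of the 16 libraries; right, MT1X counts per MT2A count in each library on a log axis, grey for control and blue for CM-1758. The MT1X share is larger in the treated libraries of every line, and the treated ratios lie between 1.18 and 1.70.

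Across the 16 libraries, log2 CPM of MT1G and MT1H had a Pearson r of 0.96, that of MT1X and MT2A one of 0.82, and that of MT1A and MT3 one of 0.77. MT1M and MT1H had an r of -0.23. These are descriptions over libraries that share lines, treatment and, for low genes, runs of 0. The 5 genes whose log2 CPM was most like the mean of the 9 members over the 16 libraries, among 14208 ranked, were ZNF184 (r = 0.95), COL14A1 (0.94), ZKSCAN3 (0.93), ZNF233 (0.92) and TBC1D12 (0.92).

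Of 12 other metallothionein genes and pseudogenes, 9 were in the table and only MT1DP passed the filter. MT1DP, a pseudogene between MT1A and MT1B, had 2 and 0 counts in control TCCSUP and 30 and 18 with CM-1758, a ratio of 23.7 with an exact 95% counting interval of 6.20 to 201 (adjusted p = 0.00527). DESeq2 did not call it. MT4, a member of stratified squamous epithelia, had 6 and 11 counts in treated TCCSUP and MT1B had 7 and 6, and both had 0 in the other 14 libraries. These 2 genes were not tested and were named after their values were seen.

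MTF1, the zinc-sensing factor, rose in 3 lines. It went from 7.53 and 7.97 CPM to 19.0 and 17.5 CPM in 253J, a log2 fold change of 1.23 (SE 0.21, adjusted p = 0.0001881). In RT112 it went from 13.4 and 16.6 to 36.4 and 48.3 CPM (log2 fold change 1.5, SE 0.21, adjusted p = 3.434e-05) and in TCCSUP from 12.7 and 13.6 to 28.3 and 26.7 CPM (1.06, SE 0.21, adjusted p = 0.0005448). In J82 the groups overlapped, at 16.3 and 10.2 CPM in control and 15.3 and 18.4 CPM with CM-1758 (0.35, SE 0.21, adjusted p = 0.1922). J82 was also the line with the smallest MT1X and MT2A changes, but the MTF1 response did not pass the F test between lines (adjusted p = 0.01977). A link between MTF1 and the metallothionein changes was not tested.

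SLC30A1, the zinc exporter of the plasma membrane and another MTF1 target, moved in different directions between the lines. It fell in 253J from 399 and 358 CPM to 144.3 and 172.5 CPM, a log2 fold change of -1.26 (SE 0.18, adjusted p = 3.068e-05). It rose in J82 from 128.8 and 116.4 to 237.6 and 227.7 CPM (log2 fold change 0.92, SE 0.18, adjusted p = 0.0006681) and in TCCSUP from 346.5 and 276 to 554 and 460.9 CPM (0.71, SE 0.18, adjusted p = 0.00345). RT112 had 411.1 and 464.6 CPM in control and 471.2 and 640.1 CPM with CM-1758 (0.34, SE 0.17, adjusted p = 0.1189). The response differed between lines in the F test (adjusted p = 1.984e-05). 253J, the line in which SLC30A1 fell, had the highest treated MT1X levels. A link between the changes of SLC30A1 and of the metallothioneins was not tested.

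Of MTF1 and the 10 zinc exporters of the SLC30 family, 10 genes were tested, and 3 rose in each line, while 3 fell in RT112, 2 in 253J and 1 in TCCSUP. Among all genes 17.4% to 23.7% were called higher and 13.3% to 18.1% lower, depending on the line, and 3 of 10 is not far from that background. SLC30A3, which loads zinc into vesicles, rose in J82 (log2 fold change 3.74, SE 0.47), RT112 (1.97, SE 0.36) and TCCSUP (2.77, SE 0.37), and had a value of 0.47 (SE 0.31) in 253J. SLC30A2 rose in J82, from a mean of 0.167 to 3.71 CPM. Of the 14 zinc importers of the SLC39 family, 12 were tested, and 8 fell in 253J, 7 in RT112, 7 in TCCSUP and 1 in J82, while 2 rose in J82, 1 in RT112 and 1 in TCCSUP. Over the tested importers the median change on the log2 scale was -1.24 in 253J, -0.79 in RT112, -0.68 in TCCSUP and near 0 in J82. SLC39A1, a plasma membrane importer, fell in all 4 lines, by 1.39 in 253J, 1.34 in TCCSUP, 1.06 in RT112 and 0.70 in J82 (SE 0.18 each) on the log2 scale. SLC39A11 fell by 1.25 in 253J, 1.54 in RT112 and 0.58 in TCCSUP (SE 0.14 each) and had -0.28 in J82. SLC39A2 fell in RT112 (log2 fold change -2.49, SE 0.45) and was at least 6.65-fold higher in TCCSUP. Over the 4 lines there were 23 calls of a lower importer, and 15 with library size alone.

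Of 9 copper handling genes, all tested, 4 rose in 253J, 3 in J82, 3 in TCCSUP and 2 in RT112, and 1 fell in J82 and 1 in RT112. The share of all genes called higher was 21.4% in 253J, 17.4% in J82, 23.7% in TCCSUP and 20% in RT112, and the count in RT112 is near it. ATOX1, the chaperone that carries copper to the ATP7 pumps, rose in all 4 lines, by 1.35 in 253J (SE 0.21), 0.86 in TCCSUP (SE 0.22), 0.84 in J82 (SE 0.21) and 0.78 in RT112 (SE 0.22) on the log2 scale. The pump ATP7A rose in 253J (1.79, SE 0.18) and J82 (2.41, SE 0.19), and its relative ATP7B in RT112 (1.13, SE 0.17) and TCCSUP (4.20, SE 0.23).

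**Figure D4:**
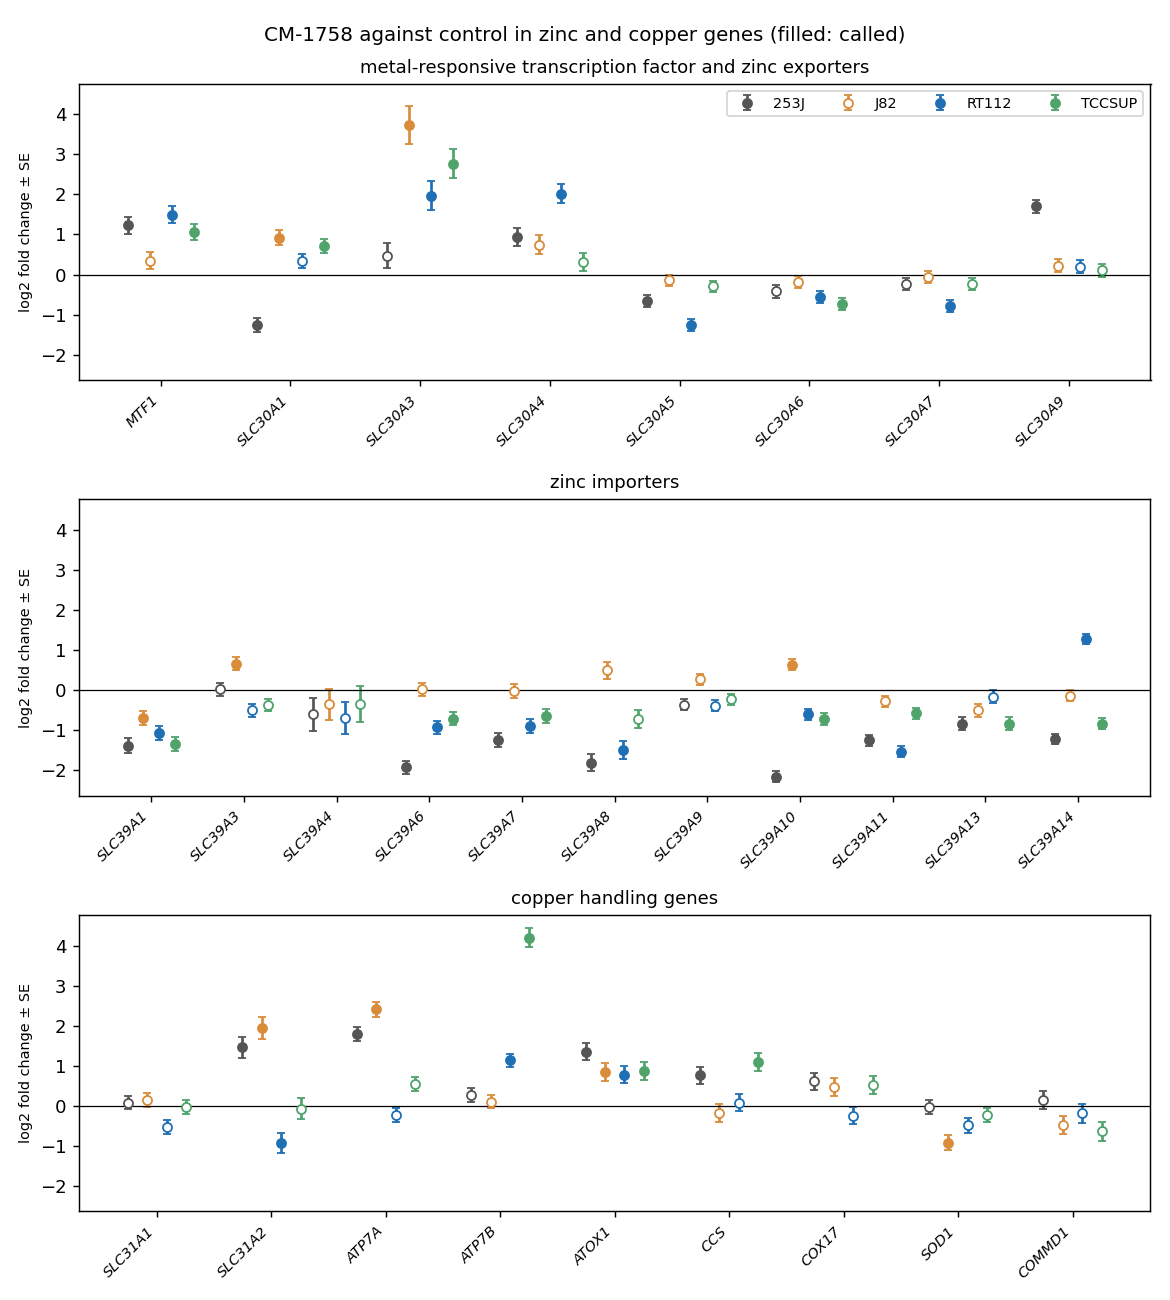
Log2 fold change of CM-1758 against control with SE for MTF1 and zinc exporters (top), zinc importers (middle) and copper handling genes (bottom) that were tested with a fitted change in all 4 lines; the colours are the lines and filled points passed an adjusted p of 0.01. SLC39A1 is below 0 and ATOX1 above 0 with filled points in all 4 lines, and SLC30A1 is below 0 in 253J and above 0 in the other lines.

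The glucocorticoid receptor and 9 genes it commonly induces were listed because glucocorticoids also switch some metallothioneins on. All 10 were tested and 8 rose in RT112, 5 in 253J, 4 in J82 and 4 in TCCSUP, while 2 fell in RT112, 2 in TCCSUP and 1 in 253J. These counts stand beside 20%, 21.4%, 17.4% and 23.7% of all genes called higher in RT112, 253J, J82 and TCCSUP and 13.3% to 18.1% called lower. DUSP1, a phosphatase of MAP kinases, rose in all 4 lines (log2 fold changes 1.41, 2.17, 3.37 and 2.73 in 253J, J82, RT112 and TCCSUP), as did SGK1 (1.23, 1.30, 2.90 and 0.96). ZBTB16 rose from 0 counts in RT112, at least 6.78-fold. Many stimuli induce these genes. The median over the list was 2.08 in RT112, 0.87 in both 253J and J82 and 0.52 in TCCSUP.

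Over the 4 lines, genes around the cluster were called in both directions. Of 9 flanking genes on 16q, 8 were tested, and 2 rose in RT112 and 1 in TCCSUP, while 2 fell in each of RT112, TCCSUP and 253J and 1 in J82. These counts are near the share of all genes called higher (20% in RT112 and 23.7% in TCCSUP) and lower (13.3% to 18.1%). BBS2, on the MT4 side, had log2 fold changes of 0.27 (SE 0.17) in 253J, 0.17 (SE 0.17) in J82 and 0.10 (SE 0.17) in RT112 and rose by 0.81 (SE 0.17) in TCCSUP. NUP93, on the MT1X side, had -0.27, 0.11, 0.30 and 0.04 (SE 0.15 to 0.16) in the order 253J, J82, RT112 and TCCSUP, with adjusted p from 0.1289 to 0.8374. GNAO1 rose in RT112 (log2 fold change 5.63, SE 0.71), and SLC12A3 fell in J82 (-2.19, SE 0.25) and rose in RT112 (3.28, SE 0.68). BBS2 and NUP93 were named as the nearest genes to the cluster.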

How the data were processed

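The authors deposited 1 table of raw counts, whole numbers of reads per gene symbol, made from stranded total RNA libraries with ribosomal RNA depleted. The submitters' processing notes name HISAT2, StringTie and GRCh37; the annotation, the counting step and its use of strand are not given in the sources used here. GENCODE v29 and RefSeq GRCh38.p14 gave sequences, names and gene order only.

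The counts were fitted over all 16 libraries with edgeR 4.0.16 (filterByExpr over the 8 groups, TMM, quasi-likelihood F test) in R 4.3.3, with 8 residual degrees of freedom. Adjusted p-values are Benjamini-Hochberg over the 21297 genes tested within each contrast, and a gene was called at an adjusted p below 0.01. SE is the log2 fold change over the square root of F. With 0 control counts a fold is a lower bound against 3 counts per library, and with a group total of 1 to 3 counts a ratio with an exact 95% counting interval, covering counting error only. Alternatives were DESeq2 1.42.0, RLE, library size alone, no filter, at least 10 counts in every library, each line alone, thinning to the smallest library (22506431 counts), other thresholds, the replicate number as a block, and leaving out each library. Coding sequences were aligned with Biopython 1.88. The script was tested on simulated counts.

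The members and lists were chosen with earlier results of these data known. All members were named, MTF1 and SLC30A1 always, and from each other list the genes called in all 4 lines, made up to 3 by the largest mean change; 1 gene that this rule gives is not reported here. The 2 libraries per group are independent replicates in the study's methods. Replicate numbers were not taken as pairs in the main fit: the same-number correlation of deviations was 0.218 in J82, 0.0529 in 253J, 0.0427 in RT112 and 0.0173 in TCCSUP. With 2 libraries per group this is a single value per line, which cannot exclude pairing.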

Additional observations from a re-analysis of the deposited data

Results flagged for a closer look

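The MT1X response to CM-1758 differed between cell lines (edgeR interaction F test, adjusted p = 4.011e-06), with log2 fold changes of 6.0 in 253J, 5.82 in RT112, 4.87 in TCCSUP and 1.88 in J82, and was above 0 in all of them. The MT2A response also differed (adjusted p = 1.748e-07), with log2 fold changes of 1.72, 5.27, 2.26 and 0.20 in the same order. Dose and line cannot be told apart in this design, and for TCCSUP neither can the medium. For the other 7 members the same F test was not read, since they were at 0 counts in every library of at least 1 line.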

How the results depend on the processing

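With 2 libraries per group, calls near the threshold depend on single libraries, and members with at most 20 counts in any library depend on the tool. No called value of a member changed sign, and of 190 member values under other settings with all libraries 181 kept their side of the threshold, 7 lost a call and 2 gained one. DESeq2 lost MT1G and MT1H in RT112 and MT1G in TCCSUP, called 0 other metallothionein genes and 1 lower copper handling gene, and without a filter on low counts MT1H in RT112 was lost (adjusted p = 0.01015, with a range over all alternatives of 0.001147 to 0.3568). With at least 10 counts in every library 11984 genes and 2 members (MT1X and MT2A) were left, so that the calls higher were 2 in RT112, 2 in TCCSUP and 1 in J82, the call lower in J82 was 0 and the members that differed between control lines were 2. With a log2 fold change past 2 required, 253J and J82 had 1 member higher each and J82 had 0 lower. With library size alone the lower calls over the 4 lines were 3 for zinc exporters, 15 for zinc importers, 1 for copper handling genes and 2 for glucocorticoid targets, and the summed fold of the family was 9.23 in 253J and 11.7 in TCCSUP. Under TMM scaling, the summed fold of the MT1 genes alone was 64.0 in 253J and 12.3 in TCCSUP. At an adjusted p below 0.05, the lower calls of copper handling genes over the 4 lines were 5, from 4 genes, and MT1A in J82 and MT1H in TCCSUP were called.

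Leaving out 1 library at a time, the members called higher stayed at 2 in 253J and ran from 3 to 6 in RT112, 5 to 7 in TCCSUP and 2 to 3 in J82, and those called lower in J82 from 0 to 1. The summed fold ran from 7.35 to 7.98 in 253J, 38.3 to 49.6 in RT112, 8.50 to 10.3 in TCCSUP and 1.27 to 2.32 in J82. With the replicate number as a block, which left 3 residual degrees of freedom, MT1G and MT1H in RT112 (adjusted p = 0.01454 and 0.02522) and MT1G in TCCSUP (0.02937) were no longer called. Other metallothionein genes had 0 calls in that fit, and levels between control lines were not compared in it. Whether the numbers pair the libraries is not settled, so these losses are given beside the main fit and not read further.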
